A study of Bos taurus with 6 samples.

Results

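The genes described here are 10 proximal members of the insulin signalling pathway (INSR, IRS1, IRS2, PIK3R1, PIK3CA, AKT1, AKT2, TBC1D4, TBC1D1 and GRB10), taken by symbol from the 23015 rows of the deposited counts. Each of the 10 was listed on 1 row and passed the filter on low counts, together with 15039 rows in all. The question was whether the difference of IRS2 between steers with a high and a low number of fine marbling particles (NFMP) extended to its partners, the other 9 genes. IRS2 was already known to differ in these libraries, so its values are a description and the partners carry the tests. All 10 genes were chosen with earlier results of these data known, so the tests of the partners are not independent of that choice. RNA was taken from the longissimus thoracis (LT) muscle of 6 Hanwoo (Korean native cattle) steers given commercial feeds, each giving 1 library. Those with a high NFMP were 3-8, 10-8 and 10-9, aged 32.5, 33.8 and 34.5 months, and those with a low NFMP were 3-1, 3-3 and 10-16, aged 37.8, 33.7 and 35.4 months. The steers were chosen by an image analysis of fat particles on the cut muscle surface, and the study's groups also differed in marbling score.

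Insulin binds its receptor on the cell surface, and the activated receptor phosphorylates docking proteins of the IRS family. These recruit phosphoinositide 3-kinase (PI3K), whose lipid product brings AKT kinases to the membrane. In muscle and fat, AKT phosphorylates the RabGAP proteins TBC1D4 and TBC1D1, which releases vesicles carrying the glucose transporter GLUT4 to the cell surface. In both tissues the pathway also governs the balance between storage and release of energy, and in preadipocytes it takes part in the formation of fat cells. Most of its control acts on the phosphorylation of these proteins, which mRNA counts do not measure.

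The libraries held between 16283873 and 17192750 counts, made with a 3′ mRNA method in which reads gather near the end of a transcript. Values below are normalized counts, that is counts brought to a common effective library size, the mean of the 6, and differences are log2 fold changes of the high-NFMP over the low-NFMP group with a standard error (SE). Each steer is 1 animal, and the exact permutation test of 3 against 3 cannot give a p below 0.1, so the p-values come from edgeR's quasi-likelihood test and were adjusted over all 15039 tested rows by the Benjamini-Hochberg method. A gene is said to have risen or fallen at an adjusted p below 0.05. The 8 skeletal muscle fibre markers were all detected, with summed levels between 1681920 and 2023300 normalized counts in the high-NFMP and between 1693040 and 2100720 in the low-NFMP steers. In such a piece of tissue, fewer cells of a type and less RNA per cell cannot be told apart.

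INSR, the insulin receptor, rose in the high-NFMP group together with the higher IRS2. INSR was counted 1910, 1595 and 2128 times at high NFMP (steers 3-8, 10-8 and 10-9, the order kept throughout) and 1042, 1003 and 1152 times at low NFMP (3-1, 3-3 and 10-16). Every high-NFMP steer lay above every low-NFMP steer. After normalization the gap between the groups was wider than the spread within either of them, and the means were 1947 ± 181 and 1029 ± 121 (SD, n = 3 each). The log2 fold change was 0.92 (SE 0.18, adjusted p = 0.0301), a 1.89-fold difference with a 95% interval from 1.46-fold to 2.46-fold. INSR ranked 62 by p among all tested rows. The fold change stayed below the 2-fold limit that the study set, so that INSR did not pass the study's rule, which asks for an unadjusted p below 0.05 and a fold change above 2. Among steers whose label starts with 3, the difference on the log2 scale was 1.01 (1 high, 2 low), and among those whose label starts with 10 it was 0.74 (2 high, 1 low). With any 1 steer left out the log2 fold change lay between 0.85 and 1.05 and the unadjusted p did not exceed 0.00167, but the adjusted p rose to 0.0880 without 3-8, 0.0523 without 10-8, 0.0706 without 10-9, 0.114 without 3-1, 0.190 without 3-3 and 0.0595 without 10-16. The adjusted p of INSR was also above 0.05 with library totals alone (0.0507), with quantile normalization and limma (0.198), with quantile normalization and a test of each gene alone, called a per-gene test here (0.327) and with age as a term (0.205).

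IRS2, a docking protein that links the insulin and IGF1 receptors to PI3K, was counted 516, 611 and 890 times at high NFMP and 355, 299 and 390 times at low NFMP. The groups did not overlap, and steer 10-9 was the highest in both IRS2 and INSR. The log2 fold change of IRS2 was 1.05 with a 95% interval from 0.57 to 1.53. Within a library, the log2 ratio of IRS2 to INSR counts was -1.89, -1.38 and -1.26 in the high-NFMP steers and -1.55, -1.75 and -1.56 in the low-NFMP steers. This ratio needs no normalization, and its values overlapped between the groups, with means that differed by 0.11.

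IRS1, the other main docking protein in muscle, was counted 219, 422 and 275 times at high NFMP and 307, 279 and 177 times at low NFMP. The groups overlapped, with steer 10-8 far above the other high-NFMP steers and the lowest value in the low-NFMP steer 10-16. The log2 fold change of IRS1 was 0.40 (SE 0.28, adjusted p = 0.630), with a 95% interval from -0.20 to 1.01, which reaches as far as a doubling, close to the estimate for IRS2. Among steers labelled with 3 the difference of IRS1 on the log2 scale was -0.31, and among those labelled with 10 it was 1.01. Over all steers but 10-8 the log2 fold change was 0.07, and it was 0.61 without 3-8 (unadjusted p = 0.0529) and 0.58 with age as a term. The log2 ratio of IRS2 to IRS1 averaged 1.15 ± 0.58 in the high-NFMP and 0.48 ± 0.57 in the low-NFMP group (SD, n = 3 each) and overlapped between them.

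**Figure D1:**
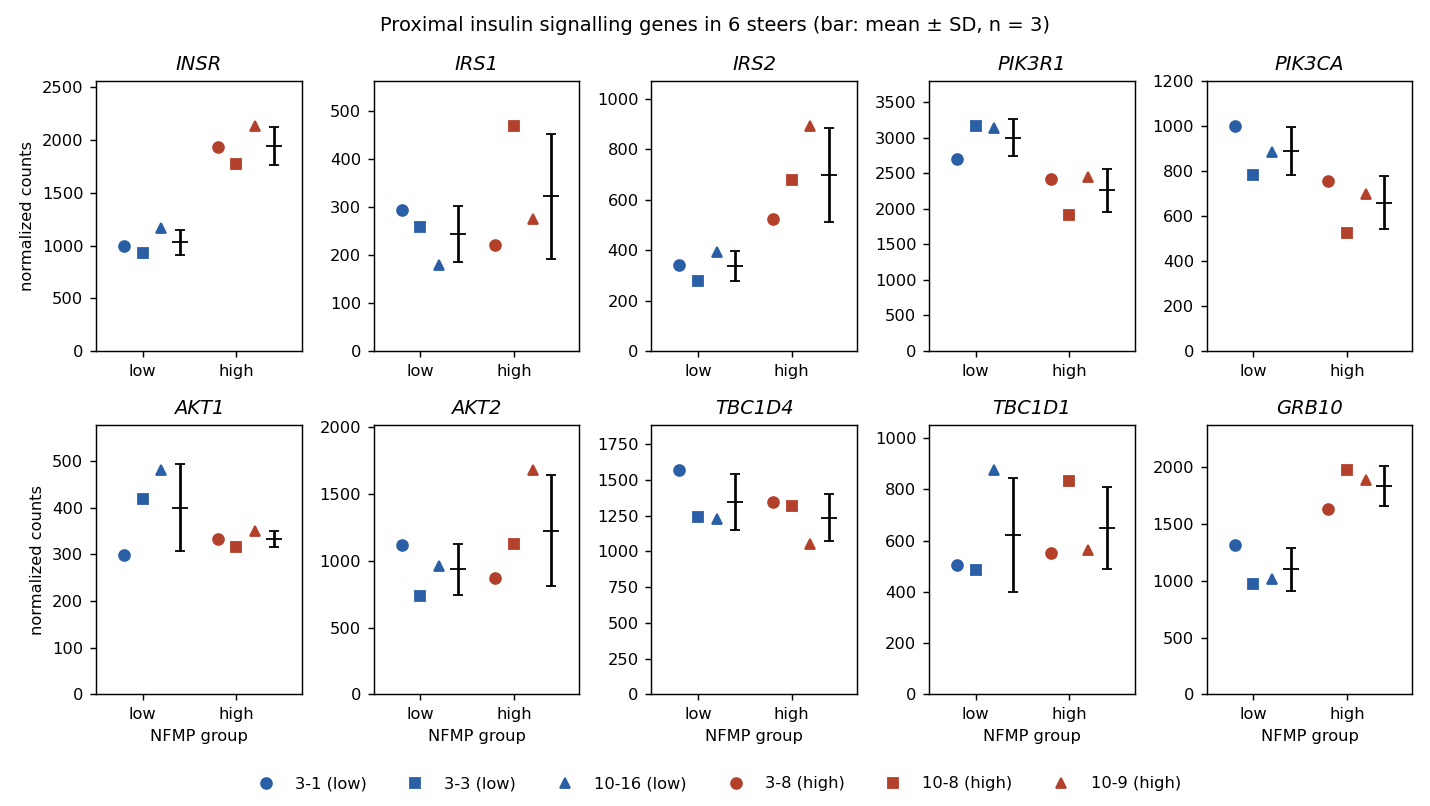
Normalized counts (vertical axes, each from 0) of the 10 genes in the 3 low-NFMP (blue) and 3 high-NFMP (red) steers, 1 point per steer with symbols as in the key, and the mean ± SD of each group (black). The red points lie above all blue points for INSR, IRS2 and GRB10 and below them for PIK3R1 and PIK3CA, and they overlap for the other 5 genes.

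GRB10, an adaptor that binds the activated insulin receptor and dampens its signal, was also higher in each high-NFMP steer. It was counted 1609, 1778 and 1881 times at high NFMP and 1374, 1050 and 1001 times at low NFMP. The nearest steers of the groups were 3-8 and 3-1, at 1631 and 1315 normalized counts. The means were 1831 ± 179 and 1099 ± 188 normalized counts (SD, n = 3 each), and the log2 fold change was 0.74 (SE 0.19) with a 95% interval from 0.34 to 1.13. The unadjusted p of GRB10 was 0.00133, and after adjustment over all rows it was 0.103 by edgeR's quasi-likelihood test, so GRB10 did not pass that threshold, whereas DESeq2 gave an adjusted p of 0.0269. The difference on the log2 scale was 0.53 among steers labelled with 3 and 0.93 among those labelled with 10. The log2 ratio of IRS2 to GRB10 overlapped between the groups, with means of -1.42 and -1.71.

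The pair of PI3K genes lay on the other side. PIK3R1 encodes the regulatory subunit that binds phosphorylated IRS proteins, and it was counted 2389, 1725 and 2447 times at high NFMP and 2821, 3423 and 3107 times at low NFMP. PIK3CA encodes the catalytic subunit alpha, and it was counted 745, 474 and 697 times at high NFMP and 1046, 848 and 877 times at low NFMP. In both genes every high-NFMP steer lay below every low-NFMP steer, and steer 10-8 was the lowest. The log2 fold change of PIK3R1 was -0.41 (SE 0.18) and that of PIK3CA was -0.43 (SE 0.20). Their unadjusted p by edgeR was 0.0413 and 0.0441, and neither passed the adjustment (adjusted p = 0.413 and 0.422). Without steer 10-8 the log2 fold changes were -0.27 and -0.26, with unadjusted p of 0.190 and 0.213. The unadjusted p of PIK3R1 was also above 0.05 without steer 3-3 (0.109) or 10-16 (0.144), and that of PIK3CA without steer 3-1 (0.162) or 10-16 (0.103). For PIK3R1 and PIK3CA in turn, it was 0.0504 and 0.0742 with the first label number as a term, and 0.0531 and 0.237 with age. With quantile normalization it was 0.104 and 0.101 by limma, and 0.0666 and 0.0769 by the per-gene test. The log2 ratio of PIK3CA to PIK3R1 within a library was nearly the same in both groups, -1.79 ± 0.09 in the high-NFMP and -1.76 ± 0.30 in the low-NFMP group (SD, n = 3 each, two-sided exact permutation p = 0.9).

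The AKT kinases, which carry the signal from PI3K to its targets, did not pass the test. AKT2, the isoform tied most closely to glucose uptake in muscle and fat, was counted 863, 1010 and 1678 times at high NFMP and 1166, 796 and 951 times at low NFMP. Steer 10-9 stood above all others, and the remaining values overlapped. The log2 fold change of AKT2 was 0.39 (SE 0.24, adjusted p = 0.571), with a 95% interval from -0.13 to 0.90, and it was 0.11 without steer 10-9. Without steer 3-8 it was 0.58, with an unadjusted p of 0.0295. The difference of AKT2 on the log2 scale was -0.05 among steers labelled with 3 and 0.52 among those labelled with 10. AKT1, an isoform with a wider part in growth, was counted 328, 284 and 348 times and 312, 452 and 477 times, with a log2 fold change of -0.26 (95% interval from -0.72 to 0.19, adjusted p = 0.669). That of AKT1 was -0.08 without steer 10-16, and -0.44 without 3-1 (unadjusted p = 0.0766). The 2 isoforms had estimates of opposite sign, yet the ratio of AKT2 to AKT1 counts overlapped between the groups. It was 2.63, 3.56 and 4.82 in the high-NFMP and 3.74, 1.76 and 1.99 in the low-NFMP steers (two-sided exact permutation p = 0.3, adjusted p = 0.9 over 3 such ratios).

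The RabGAP genes at the end of this chain gave the smallest differences among the 10. TBC1D4 (also called AS160), a brake on GLUT4 vesicles that AKT releases, was counted 1325, 1185 and 1047 times at high NFMP and 1644, 1341 and 1217 times at low NFMP. Its log2 fold change was -0.12 (SE 0.19, adjusted p = 0.832) with a 95% interval from -0.52 to 0.27. TBC1D1, a relative that is prominent in fast-contracting muscle fibres and also a target of the energy sensor AMPK, was counted 543, 750 and 560 times and 526, 523 and 869 times. In each group 1 steer stood above the other 2, 10-8 in the high-NFMP and 10-16 in the low-NFMP group. The log2 fold change of TBC1D1 was 0.06 (SE 0.25, adjusted p = 0.947), with a 95% interval from -0.48 to 0.60, and its sign changed between alternatives. Both intervals leave out a doubling or a halving of either gene. For TBC1D1 the difference on the log2 scale was 0.16 among steers labelled with 3 and -0.36 among those labelled with 10. PIK3R1, PIK3CA, AKT1 and TBC1D4 lay below 0 in both sets of steers. The ratio of TBC1D1 to TBC1D4 did not separate the groups (two-sided exact permutation p = 0.7).

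**Figure D2:**
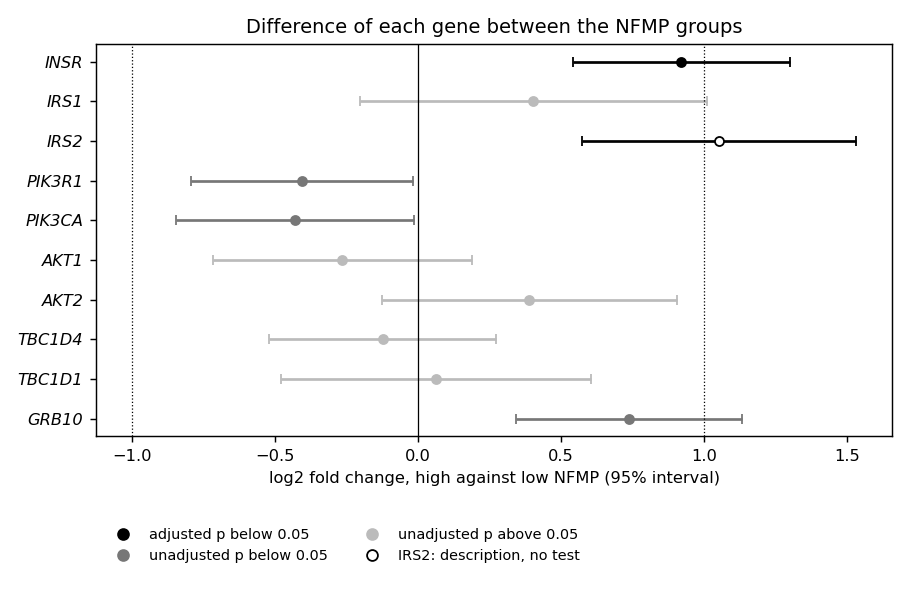
Log2 fold change of the high-NFMP over the low-NFMP group for the 10 genes (points) with the 95% interval from the fit across all genes (bars), n = 3 steers per group; dotted lines mark 2-fold differences. IRS2, drawn as an open point, is a description with no test. INSR is the partner with an adjusted p below 0.05. The interval of GRB10 lies above 0, those of PIK3R1 and PIK3CA end just below 0, and those of the other 5 genes include 0.

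Of the 9 partners, 1 (INSR) had an adjusted p below 0.05, where 0.519% of all tested rows were higher at that threshold. At an unadjusted p below 0.05 there were 2 higher partners (INSR and GRB10) and 2 lower ones (PIK3R1 and PIK3CA), against 5.73% of all tested rows higher and 5.74% lower. The groups did not overlap in the normalized counts of the same 4 partners, and in 17.1% of all tested rows. No partner passed the study's rule on p and fold change, which 3.9% of all tested rows did, whereas 4 had an unadjusted p below 0.05 by edgeR and 2 (INSR and GRB10) had an adjusted p below 0.05 by DESeq2, where 1.26% of all rows given an adjusted p were higher at that threshold. The median log2 fold change of the 9 partners was 0.06, beside 0.02 over all tested rows, since their estimates were of both signs, 5 above 0 and 4 below.

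The ratio of IRS2 to each partner in the same library needs no normalization either. Relative to PIK3R1, IRS2 had a log2 ratio of -2.21, -1.50 and -1.46 in the high-NFMP steers and -2.99, -3.52 and -2.99 in the low-NFMP steers, and relative to PIK3CA its mean ratio differed by 1.47 between the groups. The ratios to PIK3R1, PIK3CA, AKT1, AKT2, TBC1D4 and TBC1D1 were higher in every high-NFMP than in every low-NFMP steer, 6 of 9 partners. The same held for 63.7% of all other tested rows, so this share of the partners is near the background and says nothing particular to them. The ratios to INSR, IRS1 and GRB10 overlapped. Since all 9 ratios share the counts of IRS2, which was chosen for its difference, they are given without a test.

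**Figure D3:**
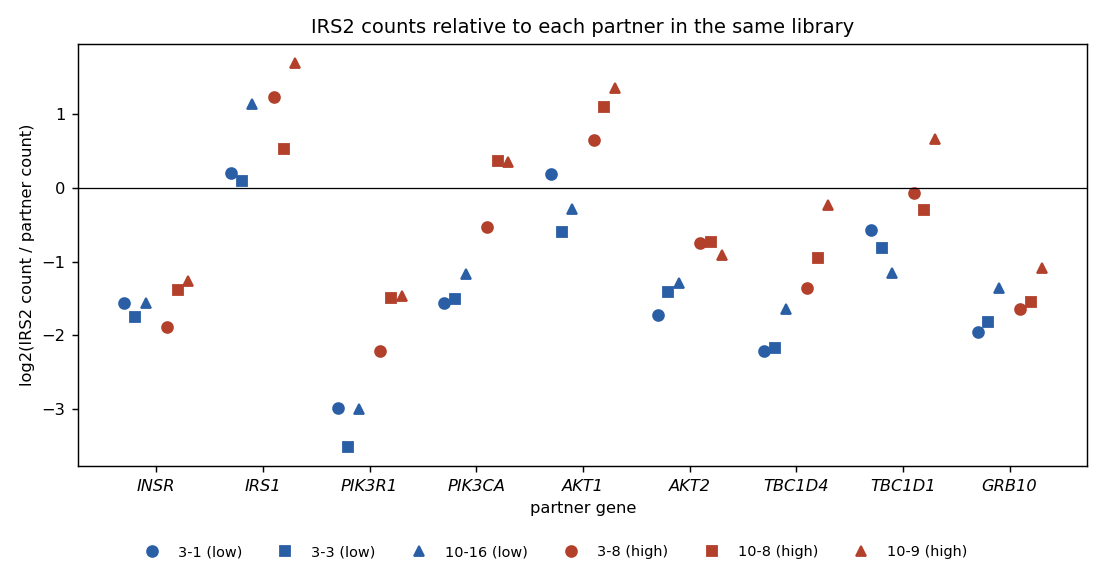
Log2 ratio of the raw counts of IRS2 to those of each partner (horizontal axis) within each library, for 3 low-NFMP (blue) and 3 high-NFMP (red) steers, 1 point per steer. Red and blue points overlap for INSR, IRS1 and GRB10 and are apart for the other 6 partners.

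The profiles of the partners over the 6 steers were set beside that of IRS2 as a description. As a measure of likeness, the log2 normalized counts of each gene were centred on their own mean and their root mean square difference from IRS2 was taken, among 8728 other tested rows with a mean of at least 100 normalized counts. INSR came at place 8, with a difference of 0.21, GRB10 at place 32 with 0.29 and AKT2 at place 213 with 0.37, while the other 6 partners lay at 0.58 or more. The 3 nearest rows were PRKAG2, a regulatory subunit of AMPK (0.08), ATG101, a component of the complex that starts autophagy (0.14), and CCDC112 (0.15). PRKAG2 had 840.1, 1029 and 1501 normalized counts in the high-NFMP and 537.8, 449.7 and 560.3 in the low-NFMP steers. Its steers thus took the same order as for IRS2 within the high-NFMP group, whereas INSR was lowest in 10-8 and IRS2 in 3-8. IRS2 was chosen for its difference between the groups, which enters this measure, so the places are no separate support for INSR or GRB10.

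Some other features of the libraries moved with the group. All 8 adipocyte markers were detected and had a log2 fold change above 0, 4 of them (ADIPOQ, CIDEC, PLIN4 and CIDEA) with an unadjusted p below 0.05 and none with an adjusted p below 0.05 by edgeR, the smallest adjusted p being 0.214. Their summed level was between 12265 and 15565 normalized counts in the high-NFMP and between 10408 and 10886 in the low-NFMP steers, a log2 ratio of the group means of 0.40. The separation of these sums rested on GPD1, which was counted highly and itself overlapped between the groups, at 4357, 8037 and 7655 normalized counts against 5645, 5325 and 6390. Without GPD1, an alternative chosen after the values were seen, the sums were 11208, 6307 and 4610 against 4763, 5560 and 4321. These sums overlapped between the groups, and the log2 ratio of the group means was 0.60. Of the 8 markers, 3 (ADIPOQ, CIDEC and CIDEA) did not overlap between the groups and were higher in every high-NFMP steer. Over all tested rows 17.1% did not overlap, and 5.73% were higher and 5.74% lower at an unadjusted p below 0.05. The summed levels of the other markers overlapped between the groups, from 12312 to 15601 against 9714 to 12728 for fibroblasts and preadipocytes (8 of 8 detected, 2 lower at an unadjusted p below 0.05), from 1296 to 1851 against 1237 to 1597 for endothelium (7 of 7 detected, 1 higher) and from 627.9 to 978.9 against 470.8 to 879.1 for macrophages (7 of 7 detected, 2 higher). Small nuclear RNA genes held between 0.0294% and 0.0535% of the counts in the high-NFMP and between 0.0188% and 0.0193% in the low-NFMP steers. The part of adipocyte RNA and of the snRNA share in the higher INSR, IRS2 and GRB10 was not tested.

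In the ARS-UCD2.0 cattle assembly as annotated by RefSeq, which is not the assembly that the study names, a listed gene overlaps INSR and another overlaps PIK3CA. The long noncoding RNA gene LOC112447347 lies across INSR and was counted 113, 98 and 253 times at high NFMP and 61, 48 and 49 times at low NFMP. Its log2 fold change was 1.65 (SE 0.34, adjusted p = 0.0455), in the direction of INSR at a much lower count. KCNMB3, a potassium channel subunit gene, overlaps PIK3CA and was counted 512, 314 and 465 times and 626, 581 and 570 times, which followed the order of PIK3CA in the high-NFMP steers. Whether reads were shared between these genes was not tested. No gene of that table overlaps IRS2, PIK3R1, AKT1, AKT2 or TBC1D4.

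Beyond these 10 genes, 64 further genes of the pathway were followed, of which 63 were listed and 59 were tested. IRS4 was not analysed here, and INSRR, SH2B2, GRB7 and TRIB3 reached at most 8, 9, 7 and 10 counts in a library. No gene among the 59 reached an adjusted p below 0.05 by edgeR. At an unadjusted p below 0.05 there were 12, 5 with a higher and 7 with a lower mean at high NFMP, where 11.5% of all tested rows had such a p. The median log2 fold change of the 59 genes was -0.07, beside 0.02 over all tested rows.

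At the level of the receptor, IGF1R, the receptor for insulin-like growth factors that forms hybrids with INSR, was counted 1181, 849 and 1275 times at high NFMP and 943, 819 and 591 times at low NFMP. After normalization its groups did not overlap, and its log2 fold change was 0.60 (SE 0.20, unadjusted p = 0.0101, adjusted p = 0.256). Of 7 receptor-level inhibitors, 2 (PTPN1 and SOCS3) had a lower mean at an unadjusted p below 0.05, as 5.74% of all tested rows did, and the estimates of the other 5 lay between -1.03 and 0.22 on the log2 scale. PTPN1, a phosphatase that removes phosphate from the receptor, was counted 790, 551 and 658 times and 1117, 1175 and 987 times, with a log2 fold change of -0.60 (SE 0.18, unadjusted p = 0.00458, adjusted p = 0.189). SOCS3, a cytokine-induced inhibitor that binds the receptor and IRS proteins, was counted 91, 39 and 52 times and 206, 187 and 70 times, with a log2 fold change of -1.23 (SE 0.39, adjusted p = 0.238). SOCS3 was the only one of the 59 genes past the study's p and fold change rule, and its groups overlapped, since the low-NFMP steer 10-16 lay below the high-NFMP steer 3-8. SOCS3 did not pass the rule without steer 3-1 (-0.96), with the first label number as a term (-0.79) or with quantile normalization and a per-gene test (unadjusted p = 0.0864). GRB14, a relative of GRB10, was counted between 5 and 22 times in a library, with a log2 fold change of -1.03 (SE 0.54, adjusted p = 0.491). GRB14 passed the rule with that per-gene test (unadjusted p = 0.0118) and with quantile normalization and limma (unadjusted p = 0.00383). The unadjusted p of IGF1R, PTPN1 and SOCS3 stayed below 0.05 whichever steer was left out.

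Among the genes that handle the PI3K lipid, INPP5K, a lipid phosphatase, had a log2 fold change of 0.59 (SE 0.26, unadjusted p = 0.0358, adjusted p = 0.403), with an unadjusted p above 0.05 without steer 10-9 (0.0724), 3-1 (0.125) or 10-16 (0.0811). PIK3CD, a catalytic subunit best known from white blood cells, had 312.8 ± 62.2 and 202.5 ± 32.1 normalized counts (SD, n = 3 each) and a log2 fold change of 0.63 (SE 0.23, adjusted p = 0.295). Its unadjusted p of 0.0146 rose to 0.0640 without steer 10-8 and 0.0570 without 10-16. The other 6 of the 7 further PI3K subunits tested lay between -0.39 and 0.63, and the 4 phosphatases tested besides INPP5K between -0.65 and 0.07. PDPK1, the kinase that activates AKT, was at -0.20 (SE 0.19) and MTOR at -0.21 (SE 0.21) on the log2 scale, with adjusted p of 0.714 and 0.746.

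Downstream of AKT, FOXO1, a transcription factor that AKT keeps out of the nucleus, and GSK3B, a kinase of glycogen synthase, were among the better counted genes. FOXO1 was counted 4640, 4176 and 5274 times and 4844, 5465 and 5609 times, with a log2 fold change of -0.07 (95% interval from -0.45 to 0.31). GSK3B was at -0.06 (95% interval from -0.43 to 0.32), so that for both genes a difference of the size seen in INSR lay outside the interval. In the mTORC1 arm, RPTOR was at -0.52 (SE 0.20, unadjusted p = 0.0232) and RPS6KB1 at -0.60 (SE 0.24, unadjusted p = 0.0244), with adjusted p of 0.341 and 0.347. The other 9 of the 11 AKT targets and mTORC1 genes tested lay between -0.34 and 0.40. Over all tested rows 5.74% were lower at an unadjusted p below 0.05. RPTOR lost its unadjusted p below 0.05 without steer 10-8 (0.110), 10-9 (0.0692), 3-1 (0.0547) or 3-3 (0.0753), and RPS6KB1 without steer 10-8 (0.109) or 3-1 (0.150). SOS1, which leads from the docking proteins to the Ras pathway, was at -0.47 (SE 0.20, unadjusted p = 0.0337, adjusted p = 0.391), with an unadjusted p above 0.05 without steer 10-8 (0.105), 10-9 (0.117), 3-1 (0.0647) or 10-16 (0.135). The other 8 of the 9 further docking proteins and adaptors tested lay between -0.37 and 0.33.

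SLC2A4 encodes GLUT4 itself and was counted 882, 763 and 953 times at high NFMP and 393, 1031 and 660 times at low NFMP. After normalization the low-NFMP steer 3-3 lay within the high-NFMP range, the other 2 low-NFMP steers lay below it, and the log2 fold change was 0.43 (SE 0.27, adjusted p = 0.575). Without steer 3-3 it was 0.78, with an unadjusted p of 0.00998, whereas it was 0.15 (unadjusted p = 0.535) without 3-1 and 0.027 (unadjusted p = 0.918) with age as a term. Of the proteins of GLUT4 vesicles, LNPEP, an aminopeptidase that travels with GLUT4, was counted 766, 624 and 665 times and 1190, 1059 and 1050 times, without overlap. Its log2 fold change was -0.57 (SE 0.18, unadjusted p = 0.00539, adjusted p = 0.205), and the unadjusted p stayed below 0.05 with any steer left out. RAB10, a Rab protein that TBC1D4 acts on, was at -0.42 (SE 0.18, unadjusted p = 0.0316, adjusted p = 0.380), with an unadjusted p above 0.05 without steer 10-8 (0.0658), 10-9 (0.0850), 3-3 (0.0822) or 10-16 (0.120). Of the 10 genes of glucose transporter traffic tested, 6 lay above 0. The 8 besides LNPEP and RAB10, SLC2A4 among them, lay between -0.38 and 0.43. Over all tested rows 5.74% were lower at an unadjusted p below 0.05, and 17.1% did not overlap between the groups.

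Of 4 factors known to act on the IRS2 gene, CRTC2, a coactivator of CREB in the fasting response, had a log2 fold change of 0.98 (SE 0.33, unadjusted p = 0.0107, adjusted p = 0.262). It was counted 154, 260 and 118 times at high NFMP and 83, 136 and 78 times at low NFMP, so that the groups overlapped and steer 10-8 was highest. Without steer 10-8 its log2 fold change was 0.56, with an unadjusted p of 0.0974. SREBF1, a lipogenic factor known to lower IRS2 transcription in liver, was at 0.64 (SE 0.26, adjusted p = 0.354). Its unadjusted p of 0.0255 was 0.181 without steer 10-8 and 0.117 without 3-3. The other 2 factors, CREB1 at -0.38 (SE 0.27) and TFE3 at 0.15 (SE 0.28), did not pass an unadjusted p of 0.05. Over all tested rows 5.73% were higher at that p.

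**Figure D4:**
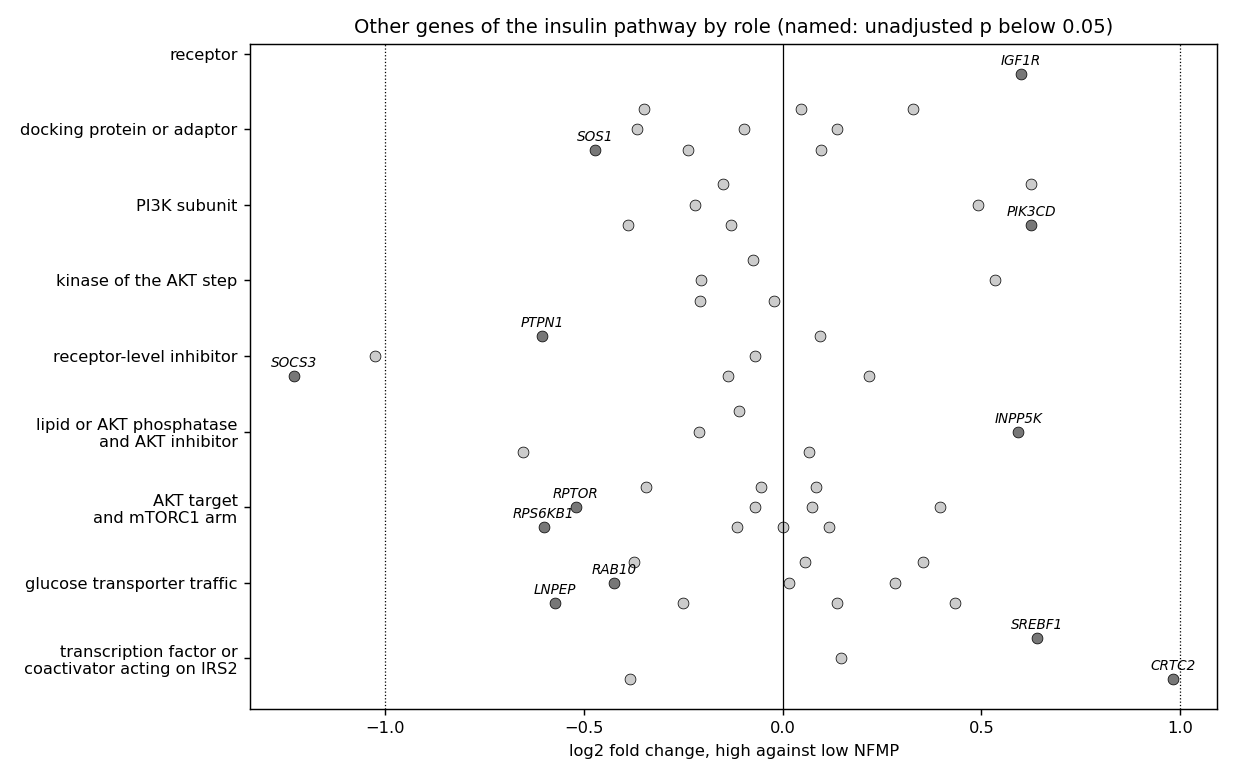
Log2 fold change of the high-NFMP over the low-NFMP group for 59 further genes of the insulin pathway, 1 point per gene, in rows by role (the vertical offset within a row only separates points); dark points with names have an unadjusted p below 0.05 by edgeR, and dotted lines mark 2-fold differences. There are 5 dark points above 0 and 7 below, and none of these genes had an adjusted p below 0.05.

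The direction of INSR, IRS2, GRB10, PIK3R1 and PIK3CA was the same under each of 9 other ways of filtering, normalizing and testing and with each steer left out. The unadjusted p of INSR and GRB10 stayed below 0.05 under all of these. With age as a term, the log2 fold changes were 0.97 for INSR and 0.97 for GRB10, with adjusted p of 0.205 and 0.162 by edgeR, and 1.29 for IRS2, while that of AKT2 was 0.79 with an unadjusted p of 0.00829.

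**Figure D5:**
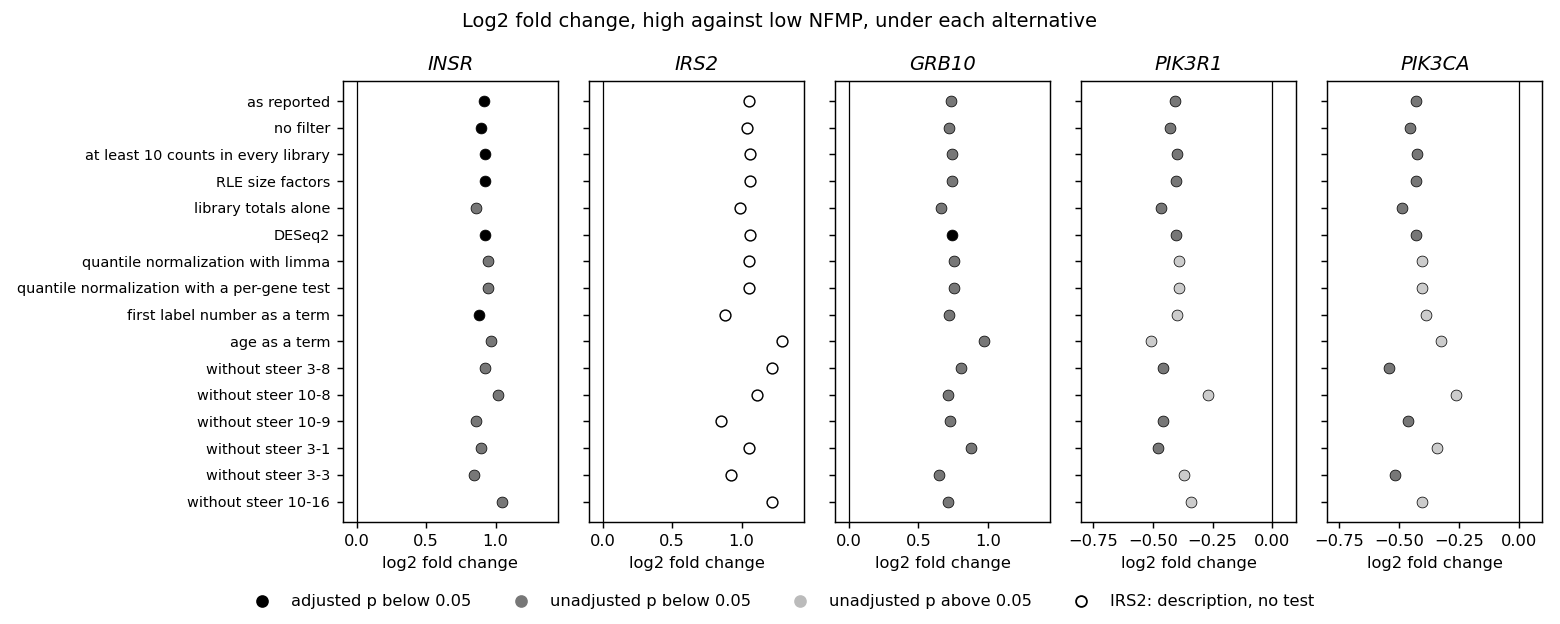
Log2 fold change of the high-NFMP over the low-NFMP group for 5 genes (panels) as reported and under 15 alternatives (rows), with black points for an adjusted p below 0.05, grey for an unadjusted p below 0.05 and light points for an unadjusted p above 0.05; IRS2, given without a test, has open points. INSR, IRS2 and GRB10 stay above 0 and PIK3R1 and PIK3CA below it in every row, while black points appear only in some rows for INSR and in the DESeq2 row for GRB10.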

How the data were processed

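Reads of 3′ mRNA libraries from LT muscle of 6 steers were counted per gene symbol by the authors, who deposited raw counts without normalization. Their methods name Tophat2 mapping followed by HTSeq counting in one place and Bowtie2 alignments, unique and multiple, in another. Per the labels, the processing tools were Bowtie2 and bedtools, with no role given. Which of these made the counts, and whether strand was used, was not stated in the sources read. The 10 members and the further pathway and marker lists were chosen with earlier results of these data known.

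The analysis used edgeR 4.0.16 under R 4.3.3. Its default filter (minimum count 10, minimum total 15) kept 15039 of 23015 rows. TMM factors were between 0.916 and 1.082. Dispersions were estimated robustly, a quasi-likelihood test compared the groups, and the SE and 95% intervals came from the fitted model. The procedures were tested on simulated counts. The named genes are the 10 members, the pathway genes with an unadjusted p below 0.05, 10 pathway genes set by name, and the 3 genes nearest to IRS2 in profile; the genes overlapping INSR and PIK3CA were named after their values were seen. Some genes of the planned pathway list are not reported here, and its counts leave them out. Alternatives were RLE size factors or plain library totals, a filter of 10 counts in every library or no filter, DESeq2 1.42.0, quantile normalization of log2(count + 1) with limma 3.58.1 or with an equal-variance test of each gene alone, a term for age or for the first number of the steer label, and leaving out each steer. The study also normalized by quantiles, whereas the log2 step and the same test for every gene were chosen here. Intervals cover the spread between steers. The methods name no molecular identifiers, so reads need not be separate molecules.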

Additional observations from a re-analysis of the deposited data

How the results depend on the processing

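The number of partners with an adjusted p below 0.05 was 1 by edgeR, 2 by DESeq2, and 0 with library totals alone, with quantile normalization and limma, with quantile normalization and a per-gene test and with age as a term. It was 0 whichever steer was left out. The 2 lower partners at an unadjusted p below 0.05 became 0 with quantile normalization and limma, with the per-gene test, with the first label number as a term and with age as a term, and between 0 and 2 with a steer left out. The higher partners at that p numbered 2 to 3, and 0 to 1 passed the p and fold change rule in those fits, INSR being past it without 10-8 or 10-16. For IRS2 the log2 fold change was 1.06 with RLE size factors, 0.99 with library totals alone, 1.05 with both quantile methods, 0.88 with the label number as a term and 1.29 with age as a term, and 0.85 to 1.22 with a steer left out.

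In the wider list, 1 gene passed the p and fold change rule, 2 with quantile normalization and limma, 0 with the label number, 2 with age, and 0 to 3 with a steer left out. With the per-gene test the count was also 1, but GRB14 took the place of SOCS3. Its higher genes at an unadjusted p below 0.05 were 5, 3 with the per-gene test and 2 to 7 with a steer left out, and the lower ones 3 to 10, with none at an adjusted p below 0.05 (0 to 0). The unadjusted p of some of these genes was above 0.05 in other fits: with age for SOS1 (0.0651), INPP5K (0.186), RPS6KB1 (0.217) and CRTC2 (0.102), with the label number for RPS6KB1 (0.0594) and SREBF1 (0.0869), with quantile normalization and limma for SOS1 (0.0764), RPTOR (0.0663), RAB10 (0.0774) and SREBF1 (0.0761), with the per-gene test for SOS1 (0.0652), SOCS3 (0.0864), RPTOR (0.0742), CRTC2 (0.111) and SREBF1 (0.135), and for INPP5K with library totals (0.0800) or no filter (0.0511). TBC1D1 changed sign with library totals alone (log2 fold change -0.0034) and with the label number (-0.089), and lay between -0.13 and 0.43 with a steer left out, below 0 without 10-8, 3-1 or 3-3. GSK3B was at 0.036 with age and between -0.10 and 0.039 with a steer left out, above 0 without 10-9 or 3-1, and FOXO1 between -0.14 and 0.042, above 0 without 10-16. The difference in log2 ratio with a steer left out was 0.38 to 0.93 for AKT2 to AKT1, -0.03 to 0.55 for TBC1D1 to TBC1D4 and -0.16 to 0.13 for PIK3CA to PIK3R1. Of all tested rows, 586 passed the p and fold change rule, 969 without a filter, 364 with at least 10 counts in every library and 350 with the per-gene test. An adjusted p below 0.05 was reached by 103 rows, 240 without a filter, 287 with DESeq2, 31 with age, 28 to 63 without 3-8, 10-8, 3-3 or 10-16, and 0 with either quantile method. The causes were not tested. The labels give no replicate numbers that pair the steers, and what the first label number stands for was not stated in the sources read.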
